A study of Homo sapiens with 4 samples.

Results

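The genes described here are 35 actin, actin-binding and focal adhesion genes, a list given by name, measured in HCT-116 cells after transfection of a miR-124 duplex. Of the 35, 29 could be read from a probe set that names no second gene, as could 19798 genes in all. The other 6 members (FLNA, ACTN4, ZYX, ILK, ACTR2 and CAP1) had no probe set of their own in the annotation used and were not analysed here. Each measured gene was read from its brightest probe set.

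HCT-116 is a human colon carcinoma line, and all arrays came from cells labelled dicer-, altered in the enzyme that cuts microRNA precursors. There was 1 array of cells given 10 nM of the miR-124 duplex with a segmented guide strand (G10.12/P) and 1 of cells given 10 nM of the duplex with an intact guide strand (G/P). The reference was 2 arrays of mock-transfected cells, and every array was taken at 24 h. The labels do not say whether the mock arrays are separate cultures. The p-values rest on gaps between these mock arrays, the gene's own and those pooled over all genes. These gaps may be technical.

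Actin monomers (ACTB, ACTG1, ACTA2) polymerise into filaments. The Arp2/3 complex branches them, cofilin and profilin turn them over, tropomyosins bind them, and actinins and myosin bundle and pull them. At focal adhesions talin and vinculin link filaments to integrins, paxillin serves as a docking scaffold, and calpain cuts talin to release the site. Moesin, ezrin and radixin tie filaments to the plasma membrane. miR-124, a neuronal microRNA, represses messages that match its seed, and IQGAP1 is one of its targets known from the literature.

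Array values are RMA intensities, given here as log2 levels, and a change is a difference of log2 levels. Changes were tested with limma over all 19798 genes, at a Benjamini-Hochberg adjusted p of 0.05. The mock pair gives the fit its 1 residual degree of freedom, and the fit assumes that each lone duplex array varies like the mock arrays. Standard errors of the members' changes against mock lay between 0.12 and 0.16. Median intensity over probe sets was 45.3 with the segmented duplex, 46.3 with the intact duplex, and 44.3 and 42.6 on the mock arrays. Of 10 measured markers of colon epithelium 6 lay above the median of all genes (log2 6.76) on the mock arrays, EPCAM, CDH1 and KRT19 among them, while KRT20, CDX1, VIL1 and CEACAM5 lay below it. The mock arrays lay close together for the members, with a widest gap of 0.23 (ACTN1). Of the 29 members 0 differed 1.5-fold between the mock arrays, against 3.23% of all genes. With the dimmest 40% of genes left out, all 29 members remain, and 0.547% of the remaining genes differed 1.5-fold. The count of 0 therefore does not set the members apart from these brighter genes. With the intact duplex 25 of 29 members lay above or below both mock arrays, as did 16597 of all 19798 genes. RNA was extracted from whole cultures, so fewer cells of a kind and less RNA per cell cannot be told apart.

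With the intact duplex 10 of 29 members passed the test against mock. The 8 that fell were IQGAP1, CAPN2, PXN, TLN1, MSN, VIM, ARPC1B and ACTB, and the 2 that rose were ACTA2 and FN1. In all genes 10.4% fell and 14.5% rose, 24.9% in either direction. Of the members 27.6% fell and 6.90% rose, so the share that fell was above the background and the share that rose below it. All 29 members are among the brighter 60% of genes, in which 15.4% fell and 20.8% rose, and 36.2% passed in either direction. The members' share in either direction, 34.5%, is close to that of these brighter genes. They are a wide set that was not matched to the members' levels.

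With the segmented duplex 5 members passed: IQGAP1, MSN, ARPC1B and CAPN2 fell and FN1 rose. Over all genes 2.68% fell and 3.31% rose, 5.99% in either direction, against 13.8% and 3.45% of members. These 5 are all among the 10 that passed with the intact duplex. Both comparisons use the same mock arrays. The count of 5 depended on the fit: with the dimmest 40% of genes left out 11 members passed (37.9%), against 40.2% of the genes tested.

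The median log2 change of the members was 0.04 with the segmented duplex and -0.02 with the intact duplex. Over all genes it was 0.01 with the segmented duplex and 0.02 with the intact duplex. With arrays centred on their medians the members' medians were -0.02 with the segmented and -0.11 with the intact duplex. The medians over all genes were then -0.05 and -0.07. The lower quartile of the members was -0.36 with the segmented duplex, against -0.20 for all genes, and -1.01 with the intact duplex, against -0.27. The upper quartile was 0.16 with the segmented duplex, against 0.26 for all genes, and 0.14 with the intact duplex, against 0.35.

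**Figure D1:**
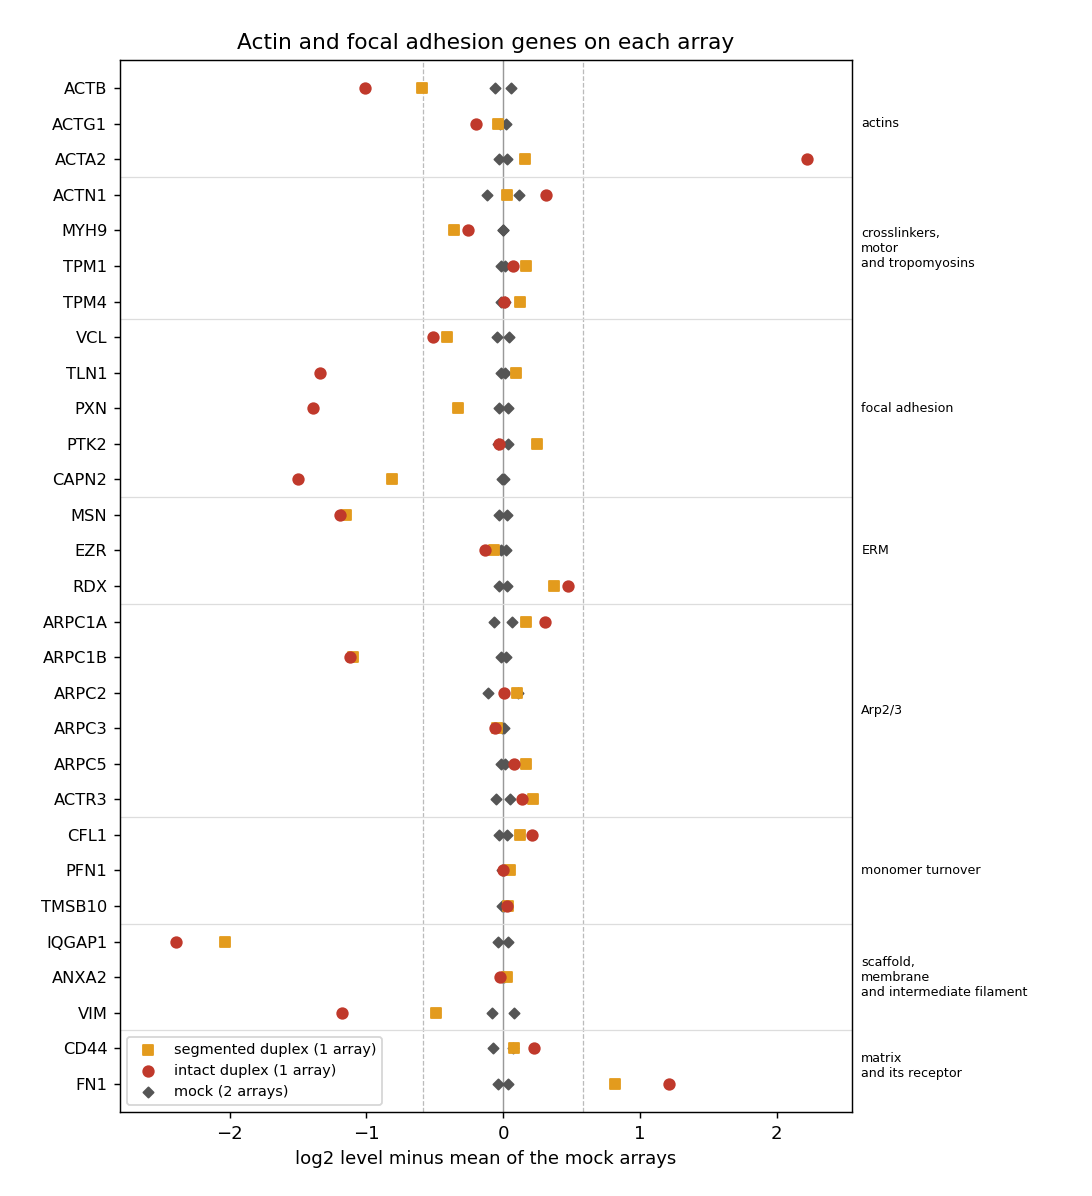
Log2 level of each of the 29 measured members minus the mean of the mock arrays (x axis), by gene and role (y axis). Squares are the segmented duplex and circles the intact duplex (1 array each), diamonds are the 2 mock arrays, and dashed lines mark 1.5-fold. IQGAP1 stands furthest below mock with both duplexes, and ACTA2 stands far above mock with the intact duplex and near it with the segmented one.

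**Figure D2:**
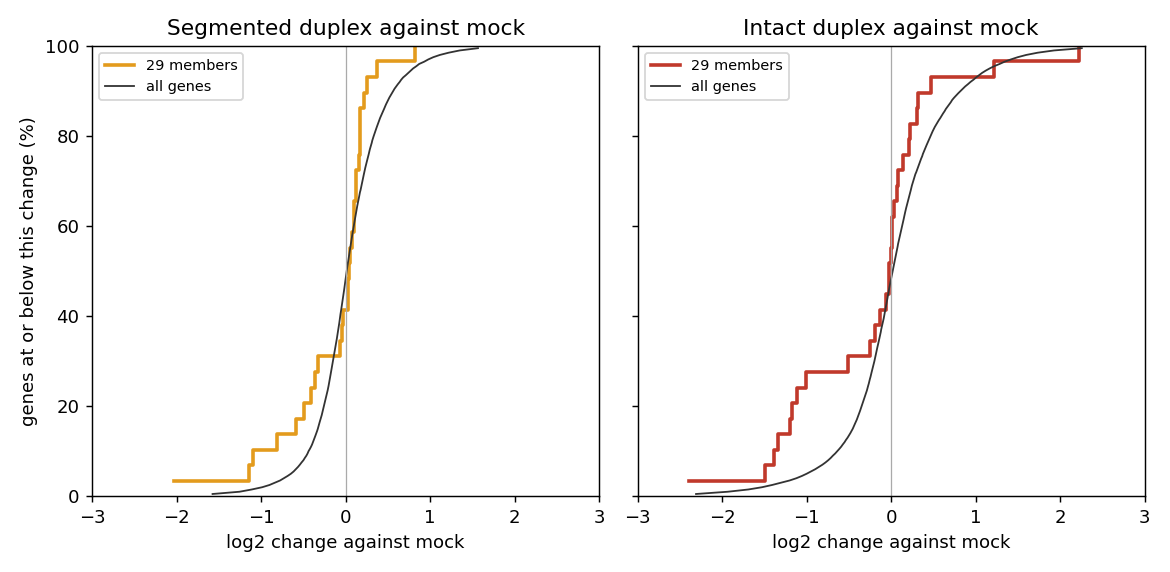
Cumulative percentage of genes (y axis) at or below each log2 change against mock (x axis), for the segmented duplex on the left and the intact duplex on the right, with the 29 members as a coloured step line and all genes as a black line. The member line lies above the black line at the left of both panels and meets it near 0.

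Of the 3 actin genes ACTB fell and ACTA2 rose under the intact guide, against 10.4% of all genes falling and 14.5% rising. By limma 0 of the 3 passed with the segmented duplex, with 1 at an unadjusted p under 0.05. ACTB, the cytoplasmic beta-actin, had log2 levels of 10.38 with the segmented duplex and 9.96 with the intact duplex, against 10.91 and 11.03 in mock cells. It fell by 1.01 with the intact duplex, 2.01-fold (limma adjusted p = 0.0164). With the segmented duplex its change was -0.59, with an adjusted p of 0.0861. Both duplex arrays lay below both mock arrays, the intact one lowest. ACTB had 1 probe set, so its fall has no second reading.

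ACTG1, the other cytoplasmic actin, stood at 13.85 with the segmented duplex and 13.69 with the intact duplex, against 13.90 and 13.87 in mock cells. Its changes of -0.03 and -0.19 had adjusted p-values of 0.893 and 0.318. Both duplex arrays were below the mock arrays by less than 1.5-fold.

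ACTA2, the actin of smooth muscle and contractile fibroblasts, showed the widest gap between the duplexes of any member. Its level was 7.34 with the segmented duplex and 9.40 with the intact duplex, against 7.21 and 7.14 in mock cells. In intensity these are 162 and 676, against 148 and 141. The rise with the intact duplex was 4.68-fold (log2 change 2.23, limma SE 0.12, adjusted p = 0.00822), while the segmented array was 0.16 above mock (adjusted p = 0.466). The second ACTA2 probe set gave changes of 0.16 and 2.24. Nothing here tests whether probes of one actin also bind messages of another. Of its muscle relatives, ACTG2 (0.07), ACTA1 (-0.45) and ACTC1 (-0.24) did not pass with the intact duplex (adjusted p = 0.872, 0.0778 and 0.239).

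Other smooth muscle and fibroblast markers were given beside ACTA2. All 11 on the list were measured, and 1 of the 11 passed with the intact duplex, the collagen gene COL1A1, which rose by 1.20. It was also the single marker above the median level of genes on every array. TAGLN stood at 6.21 with the segmented duplex and 6.50 with the intact duplex, against 6.21 and 6.10 in mock cells. The defining muscle genes CNN1, MYH11 and DES had changes of 0.14, 0.05 and -0.04 with the intact duplex. The summed intensity of the 11 markers was 849 with the segmented duplex and 1154 with the intact duplex, against 687 and 602 in mock cells. COL1A1 made up most of it, with 592 and 868, against 419 and 340. The other 10 markers summed to 258 with the segmented duplex and 287 with the intact duplex, against 269 and 262 in mock cells. The part of these markers in the ACTA2 result was not tested.

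Focal adhesion genes gave 3 of the 8 falls with the intact duplex. Of 5 measured, 3 fell, 0 rose and 2 did not pass, and with the segmented duplex 1 fell. CAPN2, the catalytic subunit of calpain-2, had levels of 12.02 with the segmented duplex and 11.33 with the intact duplex, against 12.84 and 12.82 in mock cells. It fell by 0.81 with the segmented duplex (limma adjusted p = 0.0486) and stood 2.82-fold lower with the intact duplex (adjusted p = 0.00911). Its arrays were ordered mock, segmented, intact from high to low, with no overlap, and its second probe set gave -0.74 and -1.47.

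TLN1, the talin that activates integrins, fell with the intact duplex. It stood at 10.54 with the segmented duplex and 9.11 with the intact duplex, against 10.46 and 10.43 in mock cells. The change was 0.10 with the segmented duplex (adjusted p = 0.658) and -1.33 with the intact duplex, a 2.52-fold fall (adjusted p = 0.0099). The segmented array lay slightly above the mock arrays and the intact array well below them. TLN1 had 1 probe set, so no second reading was at hand.

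PXN, which encodes the scaffold paxillin, had 10.50 with the segmented duplex and 9.45 with the intact duplex, against 10.87 and 10.80 in mock cells. It fell by 1.39 with the intact duplex (limma adjusted p = 0.00979), and the change with the segmented duplex was -0.33 (adjusted p = 0.195). Its second, dimmer probe set gave -0.46 and -0.25 with neither past a test over all probe sets, so the size of the PXN fall rests on 1 probe set. VCL, the talin-binding vinculin, was just outside the threshold with the intact duplex, at -0.52 (adjusted p = 0.0582), and at -0.41 with the segmented duplex (adjusted p = 0.144). PTK2, the focal adhesion kinase, stood at 12.07 with the segmented duplex and 11.80 with the intact duplex, against 11.79 and 11.86 in mock cells, and did not pass (adjusted p = 0.297 and 0.895).

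Of the membrane linkers of the ERM family 1 of 3 fell with each duplex. The shares of all genes that fell were 2.68% with the segmented and 10.4% with the intact duplex. MSN, moesin, had levels of 11.38 with the segmented duplex and 11.33 with the intact duplex, against 12.50 and 12.56 in mock cells. It fell by 1.15 with the segmented duplex and by 1.20 with the intact duplex (limma adjusted p = 0.0371 and 0.0118), so it stood 2.21-fold and 2.29-fold under mock. The second, dimmer MSN probe set fell further (-2.11 and -2.42), and the mean of both gave -1.63 and -1.81, so the size of the fall depends on the probe set. Both duplex arrays lay far below both mock arrays and nearly on each other.

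EZR, ezrin, stood at 13.49 with the segmented duplex and 13.42 with the intact duplex, against 13.54 and 13.57 in mock cells (limma adjusted p = 0.764 and 0.474). Its 5 probe sets gave changes of -0.34 to -0.07 with the segmented duplex and of -0.77 to -0.14 with the intact duplex, the brightest changing least. With the intact duplex 1 of them passed a test over all probe sets. RDX, radixin, had 12.68 and 12.78 with the segmented and the intact duplex, against 12.33 and 12.27 in mock cells. Its changes of 0.37 and 0.47 did not pass (limma adjusted p = 0.161 and 0.0669). On all 4 RDX probe sets the intact array lay above both mock arrays. The segmented array lay above their mean on all 4, but between them on the dimmest (5.89, against 6.14 and 5.49) and on another (9.63, against 9.11 and 9.69).

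In the Arp2/3 complex 1 of 6 measured subunits passed with each duplex. Over all genes 5.99% passed with the segmented and 24.9% with the intact duplex. ARPC1B, which encodes one form of the ARPC1 subunit, had levels of 10.15 with the segmented duplex and 10.13 with the intact duplex, against 11.27 and 11.23 in mock cells. It fell by 1.10 and 1.12 (limma adjusted p = 0.0377 with the segmented duplex and 0.0126 with the intact duplex). Its second probe set gave -1.22 and -1.20. As with MSN, the duplex arrays were almost equal and did not overlap the mock arrays.

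ARPC1A, its paralog, stood at 12.22 with the segmented duplex and 12.35 with the intact duplex, against 12.11 and 11.98 in mock cells. Its changes of 0.17 and 0.31 did not pass (adjusted p = 0.483 and 0.184). ARPC2, a core subunit, had 12.96 and 12.87 with the segmented and the intact duplex, against 12.97 and 12.75 in mock cells, inside the mock range on both.

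ARPC3 had 12.58 and 12.56 in the same order, against 12.62 and 12.63 in mock cells. ARPC5 had 12.10 and 12.01, against 11.95 and 11.92. ACTR3, the actin-related core subunit Arp3, had 12.52 and 12.44, against 12.25 and 12.35. All 3 differed from mock by at most 0.22 on the log2 scale and none passed, the lowest adjusted p being 0.357. One of the 4 ACTR3 probe sets, the dimmest, went against the rest, with -1.50 for the segmented and -1.22 for the intact duplex, and it passed a test over all probe sets with both.

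IQGAP1, a scaffold that binds actin, calmodulin and small GTPases, had the largest change of the 29 members with each duplex. Its levels were 9.65 with the segmented duplex and 9.28 with the intact duplex, against 11.64 and 11.72 in mock cells. In intensity these are 801 and 623, against 3194 and 3364. It stood 4.09-fold lower with the segmented duplex and 5.26-fold lower with the intact duplex (limma adjusted p = 0.0349 and 0.00822). All 5 of its probe sets fell with both duplexes, with changes of -2.64 to -2.03 for the segmented duplex and of -2.499 to -2.328 for the intact duplex.

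Among its paralogs, IQGAP2 rose by 0.76 with the intact duplex (limma adjusted p = 0.0245), and IQGAP3, at -0.44, did not pass (adjusted p = 0.0942).

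VIM, the intermediate filament protein vimentin, had 8.93 with the segmented duplex and 8.25 with the intact duplex, against 9.51 and 9.35 in mock cells. It fell by 1.18 with the intact duplex (limma adjusted p = 0.014), and its change with the segmented duplex was -0.49 (adjusted p = 0.126). On both VIM probe sets the intact array was lowest and the segmented array lay between it and the mock arrays. ANXA2, an annexin that links membrane and actin, lay within 0.03 of mock with both duplexes.

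FN1, the matrix protein fibronectin, stood at 7.48 with the segmented duplex and 7.87 with the intact duplex, against 6.62 and 6.69 in mock cells. The rise was 0.82 with the segmented duplex (limma adjusted p = 0.0499) and 1.22 with the intact duplex (adjusted p = 0.0116). The call with the segmented duplex was lost after quantile normalization (adjusted p = 0.0556). With the mean of its probe sets the changes were 0.52 and 0.46 and neither passed (adjusted p = 0.0803 and 0.0582). The mock level lies below the median of all genes, no detection call was used, and the other 2 FN1 probe sets lay at log2 levels of 3.36 or less on every array. CD44, the hyaluronan receptor, had 11.99 and 12.13 with the segmented and the intact duplex, against 11.83 and 11.99 in mock cells, and did not pass (adjusted p = 0.764 and 0.312).

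The remaining members had smaller changes. Of the 4 measured crosslinkers, motors and tropomyosins (ACTN1, MYH9, TPM1, TPM4) 0 passed with either duplex by limma, and at an unadjusted p under 0.05 there was 1 with the segmented duplex and 0 with the intact duplex. Their changes ran between -0.36 and 0.17 with the segmented duplex and between -0.25 and 0.31 with the intact duplex. MYH9, the heavy chain of nonmuscle myosin IIA, was the lowest of them with both. The monomer-turnover genes CFL1 (cofilin), PFN1 (profilin) and TMSB10 (a thymosin that holds actin monomers) had changes of 0.04 to 0.12 with the segmented duplex and 0.00 to 0.22 with the intact duplex, and 0 of 3 passed, with 0 at an unadjusted p under 0.05. In all, 19 members passed in neither comparison, with changes from -0.41 to 0.37 with the segmented duplex and from -0.52 to 0.47 with the intact duplex.

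Several of these genes are read by more than 1 probe set, 75 in all for the 29 members, and the brightest did not always speak for the rest. Among the 10 members past the test with the intact duplex, 8 had several probe sets, and in all 8 every probe set had the same sign. For 6 members that did not pass, another probe set passed a fit over all 52377 probe sets, in which 1.39% of probe sets passed with the segmented and 17.1% with the intact duplex. These 6 (TPM1, ACTN1, VCL, EZR, ACTR3 and CD44) were singled out after their values were seen.

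The TPM1 gene makes many tropomyosin isoforms. Its brightest probe set gave 0.17 with the segmented duplex and 0.07 with the intact duplex. Its next stood at 7.17 with the segmented duplex and 7.82 with the intact duplex, against 5.03 and 4.83 in mock cells, a change of 2.24 and 2.88 (limma adjusted p = 0.0477 and 0.0112). A CD44 probe set had 8.51 and 8.44 with the segmented and the intact duplex, against 10.17 and 10.03 in mock cells, a change of -1.59 and -1.66, while the brightest CD44 probe set was at or slightly above mock. Which transcript forms these probe sets read was not analysed here.

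**Figure D3:**
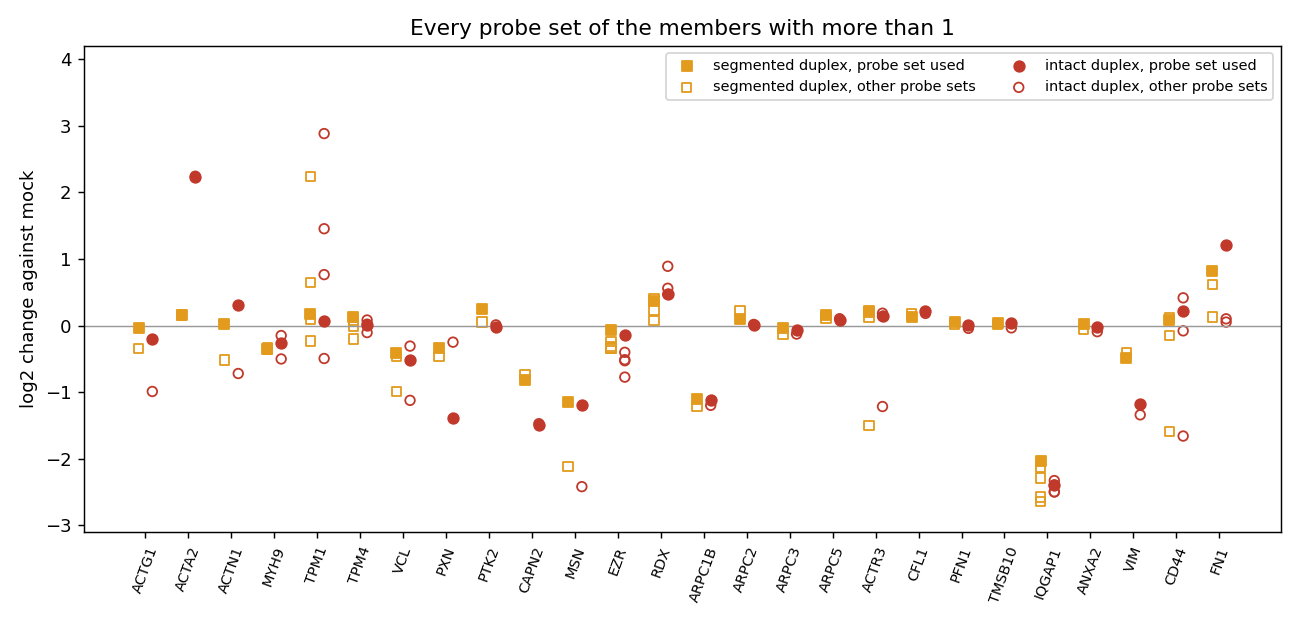
Log2 change against mock (y axis) of every probe set of the 26 members that have more than 1 (x axis), with squares for the segmented and circles for the intact duplex and filled marks for the probe set used. The 5 IQGAP1 probe sets lie together below -2, whereas those of TPM1, ACTR3 and CD44 spread over both sides of 0.

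The segmented and the intact duplex were given at the same dose and time, so they can be set against each other, with 1 array each and the spread taken from the mock pair. By limma 0 of 29 members passed, as 0% of all genes did, and adjusted p-values of the members lay between 0.181 and 0.988. At an unadjusted p under 0.05 there were 5 members, against 16.5% of all genes. For TLN1 the segmented level was 1.43 above the intact one (95% interval 1.04 to 1.82), for PXN 1.06 (0.65 to 1.46), for CAPN2 0.69 (0.30 to 1.08) and for VIM 0.69 (0.24 to 1.14). For ACTA2 it was 2.06 lower, a difference of -2.06 (-2.46 to -1.66). With the mean of its probe sets the PXN difference was 0.42 (adjusted p = 0.325), and on its second probe set the segmented array (8.24) lay below the intact one (8.45). These intervals are not adjusted over genes, and the adjusted p-values of the 5 lay between 0.181 and 0.220.

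These 5 passed when the dimmest 40% of genes were left out of the fit, with ACTA2 at an adjusted p of 0.00161 and TLN1 at 0.00204, and also with a pseudocount of 16. In the same fits 15.6% and 5.73% of all genes tested passed, and the 5 members are 17.2% of 29. For MSN and ARPC1B the difference was small, 0.05 (-0.35 to 0.45) and 0.02 (-0.38 to 0.41). For IQGAP1 it was 0.36 (-0.04 to 0.77), for ACTB 0.42 (-0.01 to 0.84) and for FN1 -0.40 (-0.80 to 0.01). With a trended and robust prior ACTB, IQGAP1 and PTK2 also passed in the difference, and FN1, MSN and ARPC1B did not. In that fit 12.2% of all genes passed. Intervals that include 0 do not show that the duplexes act alike on these genes.

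Other genes of the same machinery were read from a list of 111 names, of which 97 were measured. With the intact duplex 23 fell, 12 rose and 62 did not pass, against 10.4% of all genes falling and 14.5% rising. With the segmented duplex 9 fell, 2 rose and 86 did not pass, and all 11 had also passed with the intact duplex. The median change was -0.01 with each duplex. As among the members, the share that fell (23.7% with the intact duplex) was above that of all genes and the share that rose (12.4%) was not. Of the 97 genes, 95 remain when the dimmest 40% of genes are left out. By the same fit over all genes, 15.4% of the brighter genes fell and 20.8% rose with the intact duplex. In either direction 36.2% of the brighter genes passed, close to the 36.1% of this list. With the segmented duplex 9.28% of the list fell and 2.06% rose, against 4.34% and 4.77% of the brighter genes.

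The 6 largest falls with the intact duplex, among genes past the test, were those of DIAPH1, CFL2, WASF2, PDLIM7, LIMS1 and CNN3. DIAPH1, a formin that elongates filaments, had 9.05 with the segmented duplex and 8.16 with the intact duplex, against 10.37 and 10.29 in mock cells, and fell by 1.29 and 2.17 (limma adjusted p = 0.0362 and 0.00824). CFL2, the muscle-type cofilin, fell by 0.99 with the segmented duplex and by 2.10 with the intact duplex (adjusted p = 0.0439 and 0.00824). WASF2, which switches on the Arp2/3 complex, stood at 10.71 with the segmented duplex and 8.70 with the intact duplex, against 10.65 and 10.64 in mock cells, and fell with the intact duplex (change -1.95, adjusted p = 0.00824).

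LIMS1 (PINCH1, a partner of integrin-linked kinase) fell by 1.57 with the segmented duplex and by 1.80 with the intact duplex, and CNN3, a calponin, by 1.65 and 1.63. PDLIM7, a LIM-domain adaptor, fell as well (changes -1.28 and -1.81), but 1 of its 3 probe sets carried this and the other 2 went the other way.

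The rises named by the same rule included CAP2, a cyclase-associated protein that turns actin over, at 11.40 with the segmented duplex and 11.95 with the intact duplex, against 10.00 and 10.11 in mock cells. It rose by 1.35 and 1.89 (limma adjusted p = 0.0362 and 0.00836). TNS3, a tensin of focal adhesions, rose by 1.15 and 1.77 (adjusted p = 0.0371 and 0.00834), although for the segmented duplex 1 of its 2 probe sets had the opposite sign. TLN2, the paralog of TLN1, rose by 0.99 with the intact duplex (adjusted p = 0.0171) and stood at 0.33 with the segmented duplex (adjusted p = 0.209). PTK2B, EVL and SPIRE1 also rose when the guide was intact, by 1.23, 0.91 and 0.87, with 0.43, 0.36 and 0.38 for the segmented duplex, where they did not pass; the difference of the duplexes did not pass for them either. PTK2B lay above the median level of genes on the intact array alone, and so was named through the array on which it was high. SRF, the transcription factor of many actin genes, fell by 0.66 with the intact duplex (limma adjusted p = 0.0377). It was picked after its values were seen, and its part in the members' changes was not tested.

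**Figure D4:**
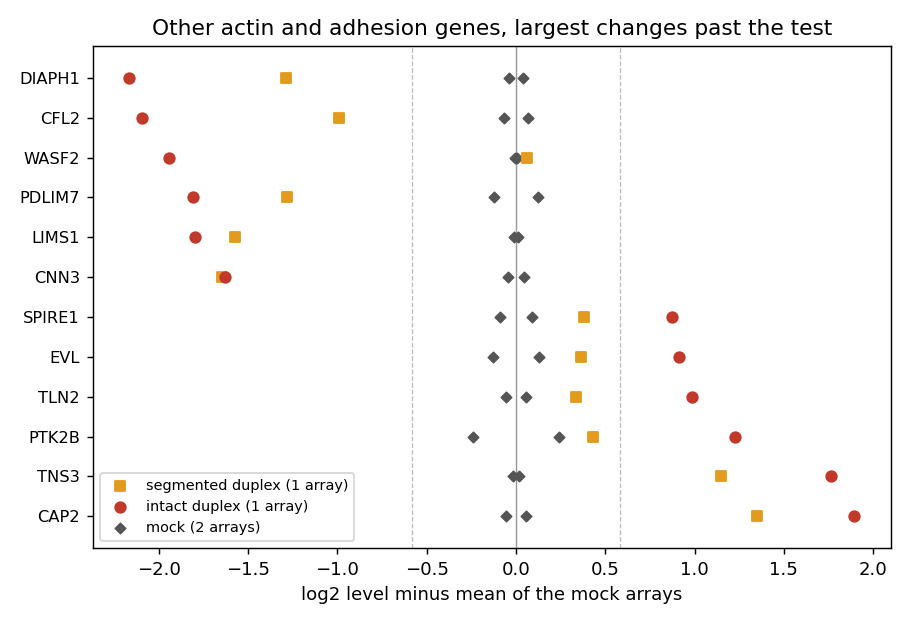
Log2 level minus the mean of the mock arrays (x axis) for the 12 genes named by rule (6 lower and 6 higher with the intact duplex) among 97 other actin and adhesion genes (y axis). Squares are the segmented duplex, circles the intact duplex and diamonds the 2 mock arrays, and dashed lines mark 1.5-fold. WASF2 lies at mock level with the segmented duplex and far below it with the intact duplex, while CNN3 lies equally low with both.

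Promoter windows were searched for the CArG box, the element bound by SRF, because it is shared by many actin genes. RefSeq windows (GRCh38.p14), running from 250 bases before to 50 after a gene's start, were found for 32 of the 35 members. A CArG box on either strand was in a window of 5 members (ACTG1, FLNA, ACTN1, TPM4 and CAPN2), 5 of their 47 windows, against 1.29% of 35116 windows of all genes. Of these 5 members FLNA was not measured, CAPN2 fell with both duplexes, and ACTG1, ACTN1 and TPM4 passed with neither. The letters GGAATG, the core bound by TEAD factors, were on either strand in 7 of the 47 member windows, against 14% of all windows. The letters GGGCGG, the core of the GC box bound by Sp1, were in 38 of the 47, against 45% of all windows. A match is a description of the letters. The windows of CAPN2, which fell, and ACTG1, which did not pass, are given 5′ to 3′ on the gene's strand with the CArG box in capitals. CAPN2 has a second window without the box.
CAPN2, chr1:223701347-223701646, plus strand: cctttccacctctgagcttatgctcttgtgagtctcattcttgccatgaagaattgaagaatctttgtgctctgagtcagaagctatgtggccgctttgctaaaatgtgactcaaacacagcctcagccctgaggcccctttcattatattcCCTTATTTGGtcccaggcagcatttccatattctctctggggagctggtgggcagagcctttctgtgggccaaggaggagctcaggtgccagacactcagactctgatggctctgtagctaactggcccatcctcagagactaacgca
ACTG1, chr17:81512750-81513049, minus strand: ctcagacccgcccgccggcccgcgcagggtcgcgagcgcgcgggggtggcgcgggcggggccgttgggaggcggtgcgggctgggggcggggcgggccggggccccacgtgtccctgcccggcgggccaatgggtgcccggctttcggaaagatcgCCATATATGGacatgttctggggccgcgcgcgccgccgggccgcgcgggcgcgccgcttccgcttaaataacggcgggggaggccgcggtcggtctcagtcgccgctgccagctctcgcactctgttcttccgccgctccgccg
The box begins 98 bases before the start in the CAPN2 window and 94 bases before it in the ACTG1 window.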

How the data were processed

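Biotin-labelled, amplified total RNA was hybridised, as the labels' protocols describe. The deposited table gives an intensity for each probe set on each array, on a linear scale, made by the authors with RMA per the submitters' processing notes, with no version stated there. This method makes the distributions of arrays alike, so a shift of most genes would be removed.

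Log2 was taken of the intensities, with nothing added. The annotation assigns 35184 of 52377 probe sets to 1 gene and 374 to several, and does not list 16819. Symbols were updated by Entrez identifier to RefSeq (GRCh38.p14), which 35134 matched. A gene was read from its probe set with the highest mean log2 level. Limma 3.58.1 (R 4.3.3) fitted 3 group means over all 4 arrays, with 1 residual and 2.89 prior degrees of freedom, and adjusted over 19798 genes. The fit was tested on simulated data. The closing section gives the alternatives.

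The members and lists were chosen with earlier results of these data known. Values on every array were given for members past the test, the actins, the ERM genes, VIM and the Arp2/3 subunits. Of the 111 other genes (14 not measured), up to 6 were named in each direction, by size of change, among those past the test whose higher group lay over the median gene, a filter that a gene can pass through the array on which it is high. SRF was named after its values were seen. The cell type markers comprised 11 of colon epithelium (10 measured, 0 lower and 2 higher with the intact duplex), 11 of smooth muscle and fibroblasts, 4 of endothelium (0 past the test), 4 of leukocytes (3 measured, 0 past) and 4 of neurons (1 higher).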

Additional observations from a re-analysis of the deposited data

How the results depend on the processing

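With a trended and robust prior, 13 members passed with the segmented duplex, 18 with the intact duplex and 8 in the difference of the duplexes, against 27.4%, 39.4% and 12.2% of all genes. With the dimmest 40% of genes left out, 11 passed with the segmented duplex and 5 in the difference, and with a pseudocount of 16, 10 and 5; with the intact duplex 12 passed under each of these. With the pseudocount 21.5%, 35.5% and 5.73% of all genes passed with the segmented duplex, with the intact duplex and in the difference. When any probe set of a member past a fit over all probe sets counted, an alternative chosen after seeing the data, 16 passed with the intact duplex, against 24.6% of all genes, and 5 with the segmented duplex, against 2.39%. Members with more probe sets have more chances there. CAPN2, ARPC1B and FN1 lost their calls with the segmented duplex under it. Of the 97 other genes 31, 40 and 30 passed with the segmented duplex and 56, 63 and 55 with the intact duplex when the dimmest were left out, with the trended prior and with the pseudocount. By the 1.5-fold rule 18 of them passed with the segmented duplex. All genes went along: without the dimmest, 40.2% and 58.5% of genes tested passed with the segmented and the intact duplex and 15.6% in the difference, against 37.9%, 41.4% and 17.2% of members.

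The members' median change with the segmented duplex was 0.048 after quantile normalization, -0.023 with centred arrays, -0.086 with the mean of probe sets and 0.031 to 0.035 without 1 mock array. With the intact duplex it was -0.11 with centred arrays, -0.19 with the mean of probe sets and -0.030 to -0.014 without 1 mock array. Centring moved the medians over all genes as well, to -0.050 with the segmented and -0.074 with the intact duplex. Small changes with the intact duplex turned sign for ARPC2 (-0.020 after quantile normalization, -0.083 with centred arrays), ARPC5 (-0.012 with centred arrays) and ACTR3 (-0.19 with the mean of probe sets), as did ACTR3 with the segmented duplex (-0.24). FN1 missed the threshold with the segmented duplex after quantile normalization (limma adjusted p = 0.0556), and with both duplexes for the mean of probe sets (0.0803 and 0.0582). The causes were not tested. Apart from these losses and those under the any-probe-set alternative, the members past the test kept their direction and passed under the tested alternatives. Leaving out a mock array leaves no residual degrees of freedom, so no count could be had. No paired analysis was possible because the duplex arrays carry no replicate number. The number of arrays and the lack of detection calls limit the precision.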
